A study of Mus musculus with 4 samples.

Results

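The transglutaminase genes Tgm1, Tgm2, Tgm3 and Tgm5 were followed in back skin of mice that lack Adam17 in keratinocytes. They were taken by gene name from the arrays' own probe annotation, which gave 4 genes of 28034 gene names and 6 probes of 41174. Tgm2 had 3 probes and each of the other genes had 1. The tested animals were cKO pups, Adam17flox/flox with the Krt14-Cre transgene, in which the keratin 14 promoter drives Cre in keratinocytes. The controls were littermates without Krt14-Cre, which the design text calls wild-type. Which Adam17 alleles each Cre-negative pup carried was not stated. All pups were 10 days old on a mix of 129Sv and C57BL/6. RNA of 2 cKO and 2 control biopsies was hybridised in 1 colour, and replicate 1 of each genotype came from litter 1 and replicate 2 from litter 2.

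Transglutaminases are calcium-dependent enzymes that join glutamine and lysine side chains of proteins by a bond that proteases do not readily cut. In the upper epidermis they build the cornified envelope, the cross-linked protein shell that replaces the plasma membrane of the dying keratinocyte and carries the outermost skin barrier. Tgm1, Tgm3 and Tgm5 are the envelope enzymes, while Tgm2 is the widely expressed tissue enzyme that also acts at the cell surface and in the extracellular matrix. ADAM17 is the membrane protease that releases ligands of the EGF receptor, a pathway tied to keratinocyte differentiation, and the comparison asks whether the transcripts of these enzymes differ when keratinocytes lack it.

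The probe sequences show where each transcript was read, since every value below belongs to 1 such probe of 60 bases. Sequences and positions are those in the deposited files, build mm9, written 5′ to 3′ on the transcript strand. For Tgm1 and for Tgm2 probe A_52_P220879 the first 30 bases are shown. The capitals mark the 20 bases that A_51_P182794 and A_51_P182796 share, so these probes of Tgm2 are not independent readings of the transcript.
Tgm1 A_52_P627816: tgacagtcgctctggggagaacatacctat
Tgm2 A_51_P182794: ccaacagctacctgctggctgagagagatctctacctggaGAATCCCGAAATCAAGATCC
Tgm2 A_51_P182796: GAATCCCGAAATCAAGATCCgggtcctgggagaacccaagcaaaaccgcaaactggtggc
Tgm2 A_52_P220879: ctgggaagaatcaaactgatgcatttaacg
Tgm3 A_51_P495560: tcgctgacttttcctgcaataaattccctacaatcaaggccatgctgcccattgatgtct
Tgm5 A_51_P436736: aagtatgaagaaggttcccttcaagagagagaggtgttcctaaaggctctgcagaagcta

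The Tgm1 probe lies at chr14:56319032-56319091 on the minus strand and starts at base 2555 of its transcript in the files. The Tgm2 probes lie on the minus strand at chr2:157945863-157945922 for A_51_P182794, chr2:157944682-157945882 for A_51_P182796 and chr2:157942275-157942334 for A_52_P220879. They start at transcript bases 1803, 1843 and 3355, so A_52_P220879 is the one nearest the 3′ end. The Tgm3 probe lies at chr2:129874069-129874128 on the plus strand and starts at transcript base 2043. The Tgm5 probe lies at chr2:120874883-120878163 on the minus strand and starts at transcript base 1435. The Tgm5 probe and A_51_P182796 span 3281 and 1201 bases of the genome, more than the 60 bases of the probe, so each is split over the genome. Exon annotation of mm9 was not used here.

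Of 43379 gene spots, 56.6% and 53.7% were well above background on the cKO arrays and 56.2% and 54.7% on the control arrays, and none was saturated. Values are log2 signal minus the array's 75th percentile, so 0 is the level below which 75% of gene spots lay. Levels of different probes are not compared, because each probe has its own brightness. All 6 transglutaminase probes were well above background on all 4 arrays. Adam17, the targeted gene, read -0.14 and -0.13 in cKO skin and 0.44 and 0.37 in control skin. Its mean was thus 69.0% of the control mean, with a difference of -0.54 ± 0.09 (SE, n = 2 each, limma adjusted p = 0.114). Both cKO values lay below both control values, while the difference did not pass the threshold of 0.05. Whether the probe lies in the deleted part was not stated. The biopsies held whole skin. Basal and suprabasal keratinocyte markers were measured, 11 of each, and so were markers of fat, muscle, vessels and macrophages.

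In cKO skin the mean signals of Tgm2 and Tgm5 were 1.33 and 1.30 times the control means, and those of Tgm3 and Tgm1 were 73.3% and 91.7% of the control means. None of the 4 genes passed the limma test adjusted over 15552 genes, where 0.341% of all genes did, 0.0707% as higher and 0.27% as lower. At an unadjusted p under 0.05, 3 of the 4 genes were counted, Tgm2 and Tgm5 higher and Tgm3 lower, against 16.2% of all genes, made up of 8.04% higher and 8.11% lower. The groups did not overlap for 4 of 4, against 49.4% of all genes, with both cKO values above both control values for 28.0% and below them for 21.4%. Tgm2 and Tgm5 were higher in cKO skin in both litters, which 40.4% of all genes were. Tgm1 and Tgm3 were lower in both, which 32.1% of all genes were.

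**Figure D1:**
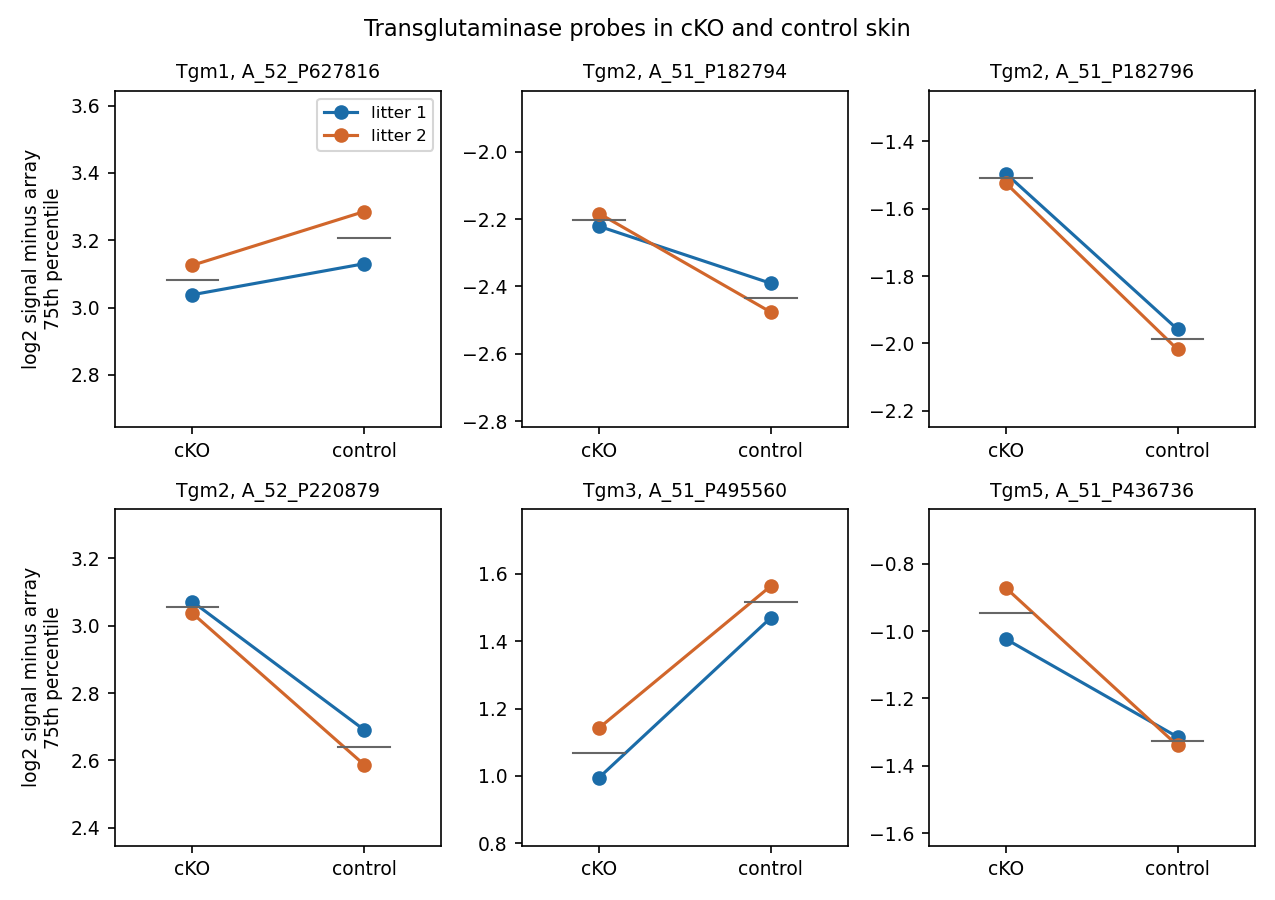
Level of each of the 6 transglutaminase probes on each array, as log2 signal minus the array's 75th percentile, with cKO left of control. Points are single arrays, lines join the 2 pups of a litter, grey bars are group means, and every panel spans 1 log2 unit. The Tgm3 and Tgm5 points of the 2 genotypes stand apart in opposite directions, while the Tgm1 points nearly meet.

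Tgm1 encodes the membrane-anchored keratinocyte enzyme that cross-links envelope proteins at the plasma membrane, and its loss in people causes lamellar ichthyosis. Its probe read 3.04 and 3.13 in cKO skin and 3.13 and 3.28 in control skin. The higher cKO value and the lower control value were separated by only 0.0044, so the groups touched without overlapping. The means were 3.08 ± 0.06 in cKO skin and 3.21 ± 0.11 in control skin (SD, n = 2 each). The difference was -0.13 ± 0.10 (SE), with a 95% interval of -0.40 to 0.15 and a limma adjusted p of 0.596. That interval allows a cKO level between 0.759 and 1.11 times the control level. Within litters the differences were -0.09 and -0.16, and the step between the 2 control pups was itself 0.16. Among all genes, 23.5% had a lower difference than Tgm1.

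Tgm3 encodes an enzyme made as an inactive precursor that proteolysis activates, and it works in the granular layer and in the hair follicle, where it cross-links trichohyalin of the inner root sheath. Its probe read 0.995 and 1.14 in cKO skin and 1.47 and 1.56 in control skin. Both cKO pups lay below both control pups. The means were 1.07 ± 0.10 in cKO skin and 1.52 ± 0.07 in control skin (SD, n = 2 each). The difference of -0.45 ± 0.10 (SE) had a 95% interval of -0.72 to -0.18 and a limma adjusted p of 0.174, so it did not pass the threshold. The litters gave -0.47 and -0.42, which were closer to each other than either was to 0. Among all genes, 5.5% had a lower difference. In bulk skin, fewer cells of a type and less RNA per cell cannot be told apart. Of 9 inner root sheath markers measured, 7 were lower in cKO skin in both litters and 1 was higher. Of all genes, 32.1% were lower and 40.4% higher in both litters. The mean level of the inner root sheath markers was 7.37 and 7.44 in cKO skin and 7.68 and 7.74 in control skin. Of 10 hair shaft markers, 5 were lower in both litters and 2 higher, with a mean level of 5.14 and 5.26 in cKO skin and 5.25 on both control arrays. The part of these cells in the Tgm3 difference was not tested.

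Tgm5 encodes an epidermal enzyme that accepts loricrin and involucrin as substrates, and its loss in people causes acral peeling skin. Its probe read -1.02 and -0.87 in cKO skin and -1.31 and -1.34 in control skin, so both cKO pups lay above both control pups. The means were -0.95 ± 0.11 in cKO skin and -1.33 ± 0.02 in control skin (SD, n = 2 each). The difference of 0.38 ± 0.10 (SE) had a 95% interval of 0.12 to 0.64 and a limma adjusted p of 0.202. The litters gave 0.29 and 0.47, and 6.8% of all genes had a higher difference. Suprabasal keratinocyte markers were higher in cKO skin in both litters for 7 of 11 and lower for 0, against 40.4% and 32.1% of all genes. Their mean level was 3.32 and 3.55 in cKO skin and 3.01 and 3.16 in control skin. Tgm1 and Tgm3, the other envelope enzymes, were lower in cKO skin in both litters. The part of suprabasal cells in the differences of Tgm1, Tgm3 and Tgm5 was not tested.

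Tgm2 encodes tissue transglutaminase, which binds guanine nucleotides inside cells and fibronectin outside them. Its brightest probe, A_52_P220879 near the 3′ end, stood for the gene. It read 3.07 and 3.04 in cKO skin and 2.69 and 2.59 in control skin, so both cKO values were above both control values. The means were 3.05 ± 0.02 in cKO skin and 2.64 ± 0.07 in control skin (SD, n = 2 each). The difference was 0.42 ± 0.09 (SE), with a 95% interval of 0.18 to 0.65 and a limma adjusted p of 0.165. The litters gave 0.38 and 0.45, and 5.5% of all genes had a higher difference.

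The other Tgm2 probes also read higher in cKO skin on every array. Probe A_51_P182796 read -1.50 and -1.52 in cKO skin and -1.96 and -2.02 in control skin. Its difference of 0.48 ± 0.09 (SE) had a limma adjusted p of 0.146 over the 22190 probes tested. Probe A_51_P182794, which overlaps it by the 20 capital bases, read -2.22 and -2.18 in cKO skin and -2.39 and -2.48 in control skin. Its difference was 0.23 ± 0.09 (SE), with a 95% interval of -0.01 to 0.47 and an adjusted p of 0.338. The cKO to control ratio was therefore 1.39 at A_51_P182796, 1.33 at A_52_P220879 and 1.17 at A_51_P182794. The differences between these probes were not tested. None of the 6 transglutaminase probes passed the adjusted threshold, where 0.158% of all probes did, and 4 of 6 had an unadjusted p under 0.05 against 15.4% of all probes.

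Tgm2 is made by several cell types of skin, so their markers were set beside it. Of all genes, 40.4% were higher and 32.1% lower in cKO skin in both litters. Endothelial markers were lower in cKO skin in both litters for 6 of 12 and higher for 2, with a mean level of 0.09 and -0.10 in cKO skin and 0.21 and 0.01 in control skin. Fibroblast markers were higher for 5 of 12 and lower for 4, with a mean level of 4.13 and 3.67 in cKO skin and 4.11 and 3.72 in control skin. Macrophage markers were higher for 8 of 12 and lower for 2, with a mean level of 0.21 and -0.01 in cKO skin and 0.16 and -0.35 in control skin. Fat cell markers were higher for 9 of 11, with a mean level of 3.39 and 3.28 in cKO skin and 2.83 and 2.60 in control skin. Skeletal muscle markers were higher for 10 of 12, with a mean level of 5.18 and 5.17 in cKO skin and 4.94 and 4.60 in control skin. The part of these cells in the Tgm2 difference was not tested. Sebaceous gland markers were lower in both litters for 5 of 9 and red cell markers for 6 of 6, with none higher. Smooth muscle markers were lower for 6 of 9 and higher for 3, while basal keratinocyte markers were higher for 9 of 11 and lower for 1.

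**Figure D2:**
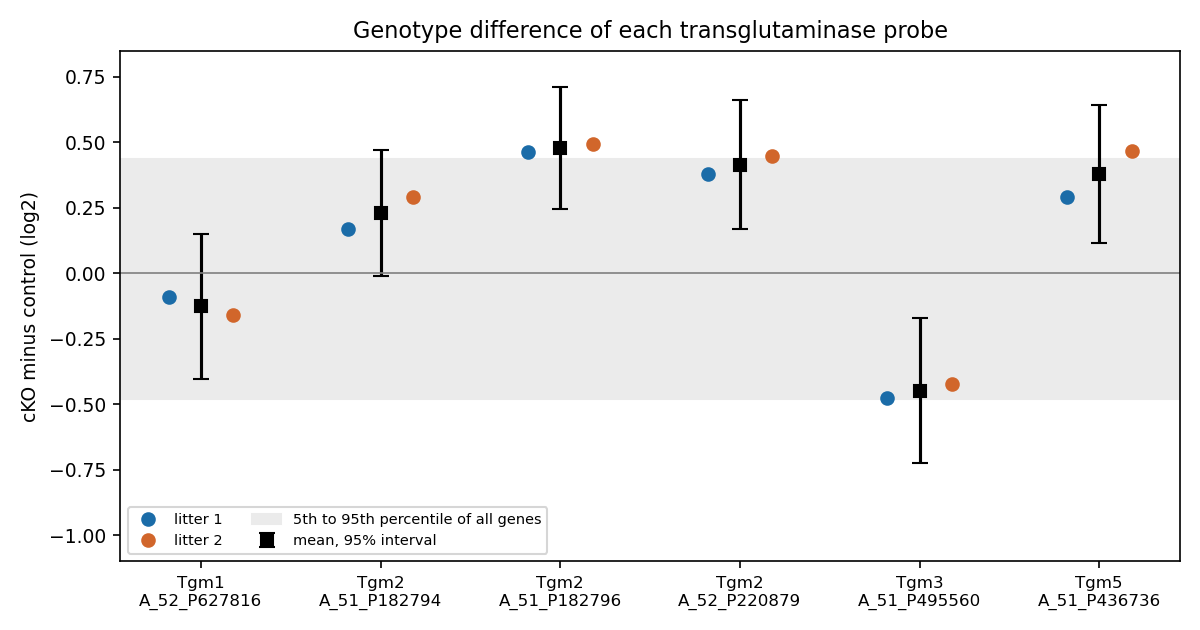
Difference in log2 signal, cKO minus control, of each transglutaminase probe. Dots are the 2 litters, squares the mean with its 95% interval from the limma fit over all probes, and the grey band runs from the 5th to the 95th percentile of all genes (-0.48 to 0.44). The intervals of 4 of the 6 probes lie clear of 0, on opposite sides for Tgm3 and for Tgm2 and Tgm5.

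The members' genotype differences lay apart by amounts that were close in both litters for Tgm2 and Tgm3, as the plot of probe differences shows. The genotype difference of Tgm2 exceeded that of Tgm3 by 0.86 in litter 1 and 0.87 in litter 2. The difference of Tgm3 minus that of Tgm5 was -0.77 in litter 1 and -0.89 in litter 2. Tgm1 lay between them, with a difference 0.38 and 0.26 above that of Tgm3 and 0.47 and 0.61 below that of Tgm2. Between Tgm2 and Tgm5 the gap was 0.09 in litter 1 and -0.02 in litter 2, so neither was the higher in both. These gaps between members were not tested. Tgm2, Tgm3 and Tgm5 all lie on chromosome 2, and the direction differed between them.

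**Figure D3:**
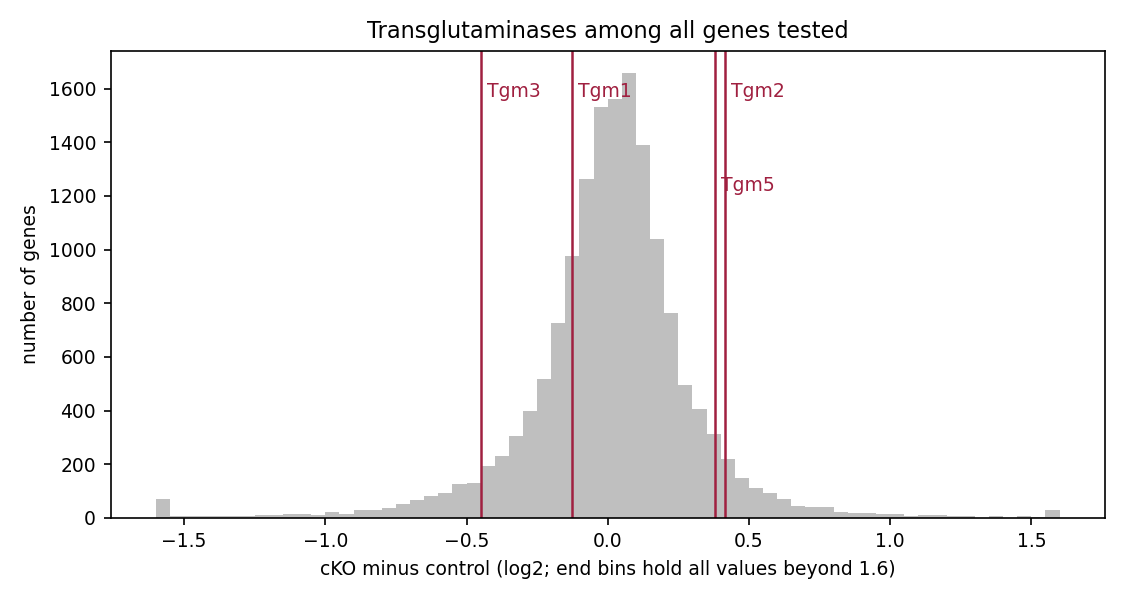
Histogram of the cKO minus control difference (log2) over the 15552 genes measured, with a line at each transglutaminase gene. The median of all genes is 0.03. Tgm2 and Tgm5 stand right of it and Tgm1 and Tgm3 left of it, all inside the 5th to 95th percentile of all genes (-0.48 to 0.44).

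Of the rest of the family, 5 of 6 genes listed were on the array and 2 were measured. Tgm6, a family member studied mostly in brain, read 0.48 and 0.66 in cKO skin and 0.30 and 0.22 in control skin. Both cKO values were the higher, with a difference of 0.31 ± 0.10 (SE) and a limma adjusted p of 0.277. F13a1, the factor XIII A subunit that cross-links fibrin and is carried by dermal macrophages and platelets, read 1.13 and 1.08 in cKO skin and 1.40 and 0.23 in control skin. The control pups straddled the cKO pups, and the difference of 0.29 ± 0.41 (SE) had a limma adjusted p of 0.769. Tgm4, F13b and Epb42 were not well above background on any array, and Tgm7 was not analysed here. In the RefSeq gene order Tgm5 lies between Epb42 and Tgm7. Tgm1 lies between Tinf2, at 0.23 with an adjusted p of 0.382, and Rabggta, at 0.02 with an adjusted p of 0.955. Tgm2 follows Rprd1b, at -0.40 with an adjusted p of 0.516, and Tgm3 follows Stk35, at 0.22 with an adjusted p of 0.350, both of the opposite sign to the transglutaminase beside them.

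The transcripts whose 4 values followed a member's most closely were found by the root-mean-square distance in log2 units, after each gene's own mean was removed, over 13392 genes. With 4 arrays this is a description only. Nearest to Tgm2 were Otud7a at 0.0028, Chek2 at 0.0052 and Eepd1 at 0.0066. Nearest to Tgm5 were Casq1, the calsequestrin of skeletal muscle, at 0.0118, Nfam1 at 0.0128 and Bcat2 at 0.0153. Nearest to Tgm3 were Mmgt2 at 0.0149, Slc22a17 at 0.0192 and Acot7 at 0.0203. Near to Tgm1 were Rps6ka1 at 0.0122 and Ube2l3 at 0.0122.

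Genes that work with the transglutaminases were read from lists, each set against all genes, of which 40.4% were higher and 32.1% lower in cKO skin in both litters around a median difference of 0.03. At an unadjusted p under 0.05, 8.04% of all genes were higher and 8.11% lower. The envelope substrates are the proteins the enzymes join. Of 48 measured, 26 were higher and 15 lower in both litters, 18 were higher and 5 lower at an unadjusted p under 0.05 in the limma fit, and none passed the adjusted threshold. Their median difference was 0.17, with 0.06 in litter 1 and 0.26 in litter 2, and it was 0.263 without control replicate 1. Lce3c, a late cornified envelope protein, had the difference of smallest p, -2.91 ± 0.29 (SE, limma adjusted p = 0.0571), and it passed the threshold under 4 of the 14 other settings. Rptn, the S100-fused protein repetin, followed at 0.79 ± 0.09 (SE, adjusted p = 0.0635) and passed under 2. Sprr2d, the highest of the 48 at 3.91 ± 0.64 (SE), was well above background in cKO skin only. It passed the filter through that group alone and is among the 18 counted as higher.

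The substrate families, picked out after their values were seen, did not share a direction. Of 12 Lce1 genes measured, 11 were higher in both litters and none lower, around a median of 0.74. All 3 suprabasal keratins were higher in both litters, around 0.78. Krt1 and Krt10 among them, and the substrate Sbsn, were also counted in the suprabasal keratinocyte markers. Tchh was also counted in the inner root sheath markers, so these lists are not separate readings. The 6 S100-fused genes had 4 higher and 2 lower, around 0.55. Of 11 Sprr genes, small proline-rich cross-bridging proteins, 3 were higher and 7 lower, around -0.25. Among the 4 plakin and sciellin genes, which form the first scaffold beneath the membrane, 2 were lower and none higher, around -0.13. Of the substrates most often named with Tgm1, Tgm3 and Tgm5, Flg (filaggrin) had a difference of 1.54 with a limma adjusted p of 0.129. Lor (loricrin) stood at 0.24 with an adjusted p of 0.418, Ivl (involucrin) at -0.15 with 0.457 and Tchh (trichohyalin) at -0.04 with 0.830. The Lce1 and Sprr genes are close relatives, so their probes may share signal.

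Transglutaminases need calcium. Of 15 measured genes of calcium sensing, entry, storage and signalling, 7 were higher and 8 lower in both litters, around a median of -0.06. Casr, the calcium-sensing receptor, was listed but did not pass the filter on dim probes. At an unadjusted p under 0.05 in limma, 2 genes were higher and 4 lower, and 1 gene passed the adjusted threshold. That gene was Trpv6, an epithelial calcium entry channel. It read -0.92 and -0.99 in cKO skin and 1.41 and 1.34 in control skin, so both cKO pups lay far below both control pups. It fell by 2.33 on the log2 scale (SE 0.09, limma adjusted p = 0.0148). With litter as a block the adjusted p was 0.0567, and it was 0.0813 without control replicate 1 and 0.0754 without control replicate 2. It also missed the threshold under the normexp background correction (0.729, with a difference of -1.87) and with no filter on dim probes (0.0826). Under normexp without spots below their local background it passed, with a difference of -2.05 (limma adjusted p = 0.00535).

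A list of skin proteases considered for activation of the precursor enzymes, together with protease inhibitors such as Cst6 and Spink5, had 14 genes. Which of these proteases cleave a transglutaminase was not tested. Of these, 2 were higher and 7 lower in both litters, around a median of -0.12. None passed the adjusted threshold in limma, and 2 had an unadjusted p under 0.05, both lower. They were Prss8, the membrane-anchored serine protease prostasin, at -0.40 ± 0.09 (SE, adjusted p = 0.172) and Ctsl, cathepsin L, at -0.29 ± 0.09 (SE, adjusted p = 0.243). The 4 deiminases, which convert arginine to citrulline in envelope and follicle proteins, had 1 higher and 3 lower in both litters, around -0.43. Padi3, among the lower, was also counted in the inner root sheath markers. Padi1 stood at -0.99 ± 0.10 (SE, adjusted p = 0.0628) and Padi2 at 0.72 ± 0.11 (SE, adjusted p = 0.114). None passed the threshold in limma, and 1 higher and 2 lower had an unadjusted p under 0.05.

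The lipid envelope is the ceramide layer that Tgm1 helps to attach. A list of its genes and of other inherited ichthyosis genes had 22 measured. Of these, 5 were higher and 14 lower in both litters, around a median of -0.15, and none passed the adjusted threshold in limma. At an unadjusted p under 0.05, 3 were higher and 6 lower. Casp14, the caspase of cornification that completes filaggrin breakdown, stood at 0.75 ± 0.10 (SE, adjusted p = 0.0876), and the epidermal lipase gene Lipk at -0.58 ± 0.09 (SE, adjusted p = 0.114).

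Retinoids act on keratinocyte differentiation and on Tgm1 transcription in cultured keratinocytes. Of 19 retinoid pathway genes measured, 8 were higher and 9 lower in both litters, around a median of -0.06, and 1 passed the test. At an unadjusted p under 0.05 in limma, 3 were higher and 5 lower. Rara, among the higher, was well above background in cKO skin only and passed the filter through that group alone. The median was 0.0698 without control replicate 1 and 0.16 without cKO replicate 2. The gene that passed was Dhrs9, a retinol dehydrogenase. It read -1.94 and -2.23 in cKO skin and 0.09 and 0.25 in control skin, with no overlap. It fell by 2.26 on the log2 scale (SE 0.14, limma adjusted p = 0.0301). It also passed under normexp without spots below their local background, with a difference of -1.82 (limma adjusted p = 0.0211). With litter as a block the adjusted p was 0.0925. It was 0.111 without either control replicate and 0.0604 without cKO replicate 2, and it was 0.729 under normexp, where the difference was -1.39, and 0.125 with no filter on dim probes.

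Of 28 transcription regulators of terminal differentiation, 13 were higher and 10 lower in both litters, around a median of 0.06. None passed the adjusted threshold in limma, and 3 higher and 2 lower had an unadjusted p under 0.05. Without control replicate 1 the median was -0.0213. Elf3, an epithelial ETS factor, was well above background in cKO skin only and passed the filter through that group alone. Its difference of 0.71 ± 0.12 (SE), from a control level not well above background, had a limma adjusted p of 0.118. Ppara, a lipid-activated nuclear receptor, stood at -0.67 ± 0.15 (SE, adjusted p = 0.165).

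Around Tgm2, 22 genes of its matrix substrates, cell surface partners and the latent TGF-beta it helps to store were measured. Of these, 11 were higher and 3 lower in both litters, around a median of 0.09, and none passed the adjusted threshold in limma, with 1 at an unadjusted p under 0.05. The median was -0.0811 without control replicate 2 and -0.0154 without cKO replicate 1. Tgfbr2, the ligand-binding TGF-beta receptor, stood at 0.32 ± 0.10 (SE, adjusted p = 0.243) and Tgfb1 at 0.22 ± 0.09 (SE, adjusted p = 0.330). Of 13 genes of EGF receptor ligands, receptors and Adam17, 5 were higher and 4 lower in both litters, around 0.08. None passed the adjusted threshold in limma, and 1 higher and 3 lower had an unadjusted p under 0.05. The median of this list was -0.0224 without control replicate 1. Besides Adam17 itself, the smallest p was that of Tgfa, a ligand that ADAM17 releases, at -0.54 ± 0.13 (SE, adjusted p = 0.199). With all kept probes of the gene averaged, the Tgfa difference was -0.35.

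**Figure D4:**
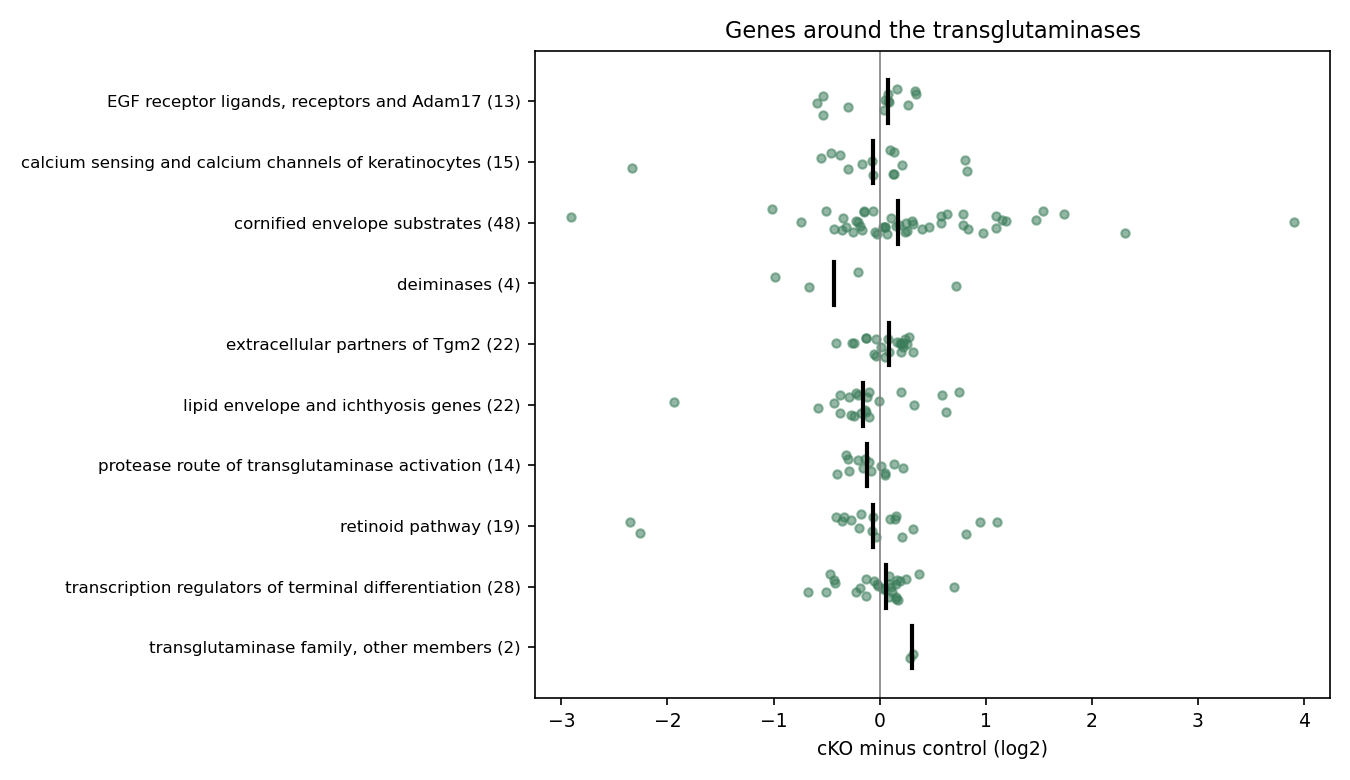
Difference in log2 signal, cKO minus control, of every measured gene in the 10 lists, with a line at each list's median and the number measured in brackets. The deiminases have the lowest median (-0.43), and among the other lists shown single genes such as Trpv6 and Dhrs9 lie far from their list's median. The highest point, Sprr2d, rests on control values that were not well above background.

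The transglutaminase differences were also computed under 14 other processing settings. Each gene kept its sign in all 14, and none passed the adjusted threshold in any. For several settings the sign could not turn. The litter block, the filters on dim probes and the eBayes trend leave these differences unchanged. Leaving out a single array cannot turn the sign of a gene whose groups do not overlap. Tgm1 ranged from -0.39 to -0.05, Tgm2 from 0.13 to 0.47, Tgm3 from -0.58 to -0.37 and Tgm5 from 0.30 to 0.48. The Tgm1 extremes came from a background correction by the normexp method and from leaving out control replicate 2. The lowest Tgm2 value came from the same normexp correction, and Tgm2 stood at 0.36 or above in the others. On cKO replicate 2, 3 spots lay below their local background. Under normexp without such spots, Tgm1 stood at -0.15 and Tgm2 at 0.37. With litter as a block the limma adjusted p was 0.337 for Tgm1, 0.124 for Tgm2, 0.117 for Tgm3 and 0.146 for Tgm5.

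**Figure D5:**
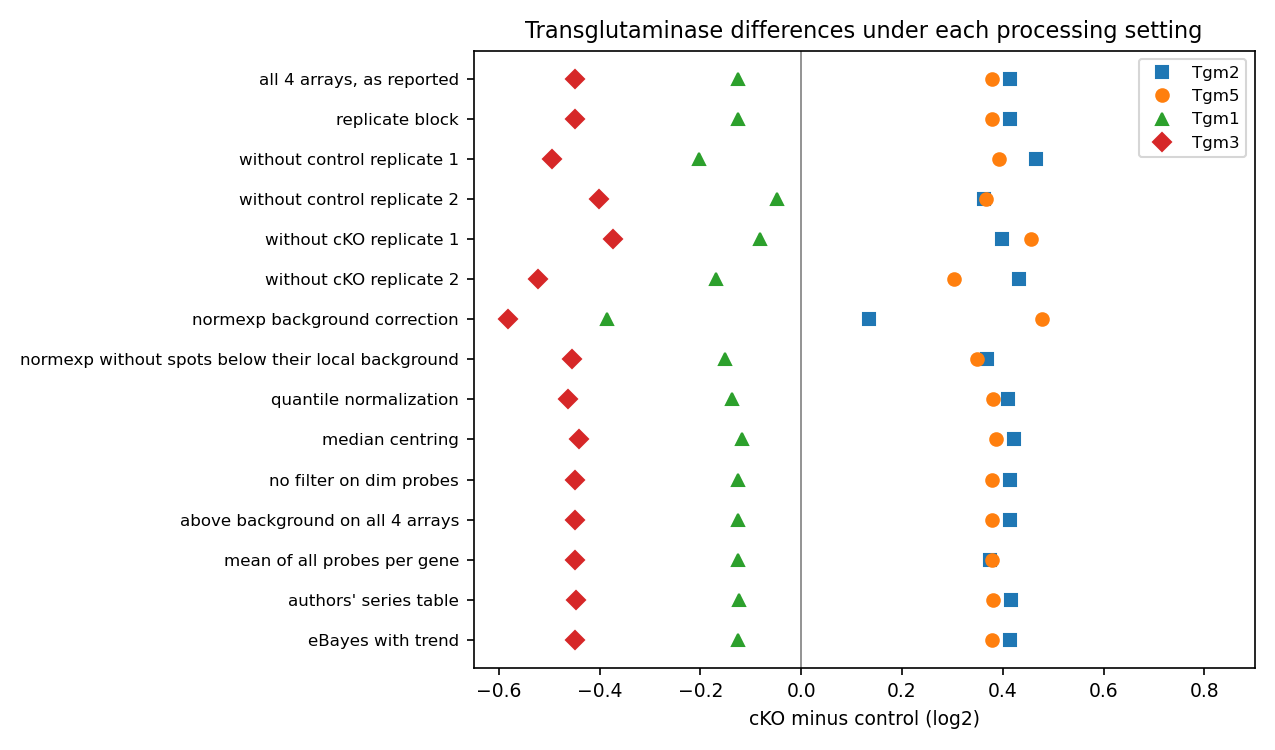
The cKO minus control difference (log2) of Tgm1, Tgm2, Tgm3 and Tgm5 as reported and under each of 14 other settings, 1 setting per line. Tgm2 and Tgm5 stay right of 0 and Tgm1 and Tgm3 left of it in every line, with the widest shift of Tgm1 and Tgm2 under the normexp correction. The litter block, the filters on dim probes and the eBayes trend leave every point where it was.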

How the data were processed

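Back skin RNA of 2 cKO and 2 control pups, 1 pup per array, was measured on 1-colour Agilent whole mouse genome arrays on 1 slide with 1 scan time, per the file headers. The deposited scanner files hold the authors' intensity values. Processed signals, flags and probe positions came from them. The headers give Feature Extraction 10.7.3.1, and the submitters' processing notes 10.5. The authors' deposited table holds log2 values, which matched the log2 processed signal after removal of the array's 75th percentile and each probe's median (correlations of at least 0.99999, column medians -0.06 and 0.08 for cKO, -0.08 and 0.06 for control); it served as an alternative.

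From each log2 processed signal the 75th percentile of the gene spots on its array was subtracted, leaving out control spots and outlier spots (51 to 66 per array). Probes that were well above background in both pups of either genotype were kept, and each gene was represented by its probe of highest mean. The cKO and control arrays were tested against each other in limma 3.58.1 under R 4.3.3 (lmFit, eBayes, all 4 arrays, two-sided, Benjamini-Hochberg over 15552 genes or 22190 probes, threshold 0.05). The fit had 2 residual degrees of freedom and a prior of 2.37, and the median standard error was 0.11. Per the labels, the replicate number marks the litter, and deviations from the genotype means correlated between same-numbered arrays (0.35 over 15552 genes). Litter as a block was an alternative. In data simulated for this comparison over 15552 genes, with 200 changed, 43.9% of 2-fold and 89% of 4-fold changes were recovered, with 5.1% false calls.

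The members and lists were chosen with earlier results of these data known. From each list the text names genes past the threshold or, where none passed, the 2 of smallest p, and for each member the 3 nearest patterns, of which 1 for Tgm1 is not reported here. Named substrates beyond that rule were picked with their values in view. Names were matched to RefSeq genes (GRCm38.p6). Precision is limited by the number of arrays.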

Additional observations from a re-analysis of the deposited data

Results flagged for a closer look

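F13a1 and the medians of 3 lists had opposite signs in the 2 litters. Each litter had 1 pup per genotype, so the difference between litters was not tested. F13a1 differed by -0.27 in litter 1 and 0.85 in litter 2 (cKO minus control, log2), a gap of 1.12. The list of other family members, which is Tgm6 and F13a1 alone, had medians of -0.04 in litter 1 and 0.65 in litter 2, a gap of 0.69. The EGF receptor list had medians of 0.12 in litter 1 and -0.02 in litter 2, a gap of -0.13. The retinoid list had 0.02 in litter 1 and -0.11 in litter 2, a gap of -0.13. Tgm1, Tgm2, Tgm3 and Tgm5 had the same sign in both litters.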

How the results depend on the processing

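Tgm1, Tgm2, Tgm3, Tgm5 and the 2 other Tgm2 probes kept their sign and stayed short of the threshold under 14 other settings. Of these settings, 1 was added after the data were seen (normexp without spots below their local background). Several of them, as given above, could not turn a sign. With 2 pups per genotype, changes of the size seen here could be missed, and the fits without a replicate assume that the lone pup varies like the other genotype. The share of genes past the threshold, 0.341% (53 genes) as reported, was 0% with litter as a replicate block (3706 genes at an unadjusted p under 0.05 in limma), 0% under normexp (423 unadjusted) and 0.868% (135 genes) under normexp without those spots. It was 0.514% (80 genes) under quantile normalization, 0.688% under median centring, 0% with no filter on dim probes (2079 unadjusted), 0.187% (28 genes) among genes above background on all 4 arrays and 1.24% (193 genes) with an eBayes trend. Without single replicates it ranged from 0% to 0.244%, with 0% without control replicate 1 (1842 unadjusted) and without control replicate 2 (1750 unadjusted). The block ended the Trpv6 and Dhrs9 calls, the only calls among the genes named. Lce3c passed without cKO replicate 1 (adjusted p = 0.0362), under median centring (0.0292), under normexp without those spots (0.0315) and with the trend (0.0217). Under these last 2 settings Rptn (0.0474 and 0.0449) and Padi1 (0.0357 and 0.0213) passed too. Under normexp, Lipk stood at 0.22, Ppara at 0.53 and Mmgt2 at 0.0527, all with the sign turned. Under normexp without those spots, Lipk stood at -0.32 and Ppara at -0.25, with the sign first reported. F13a1 ranged from -0.30 to 0.88 without single replicates, with -0.30 without control replicate 2. The list medians under normexp were -0.13 for the EGF receptor list, 0.0315 for calcium, -0.0344 for substrates, -0.69 for deiminases, -0.0031 for Tgm2 partners, -0.26 for lipids, -0.37 for proteases, 0.0642 for retinoids and -0.0685 for transcription regulators. On cKO replicate 2, 3 spots lay below their local background and 0 on the other arrays, and its 75th percentile under normexp was 1261 with all spots and 859 without these. Without them the medians were -0.0837 for calcium and 0.0556 for Tgm2 partners. The calcium median was -0.0399 under quantile normalization, and the lipid median -0.18 with all probes of a gene averaged. Without single replicates the medians ranged from -0.0224 to 0.14 for the EGF receptor list, 0.127 to 0.263 for substrates, -0.162 to -0.0231 for proteases, -0.0107 to 0.616 for the other family members, -0.0643 to -0.0331 for calcium, -0.51 to -0.36 for deiminases, -0.0811 to 0.21 for Tgm2 partners, -0.19 to -0.12 for lipids, -0.19 to 0.16 for retinoids and -0.0213 to 0.0753 for transcription regulators.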
